A study of Mus musculus with 21 samples.

Results

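Transcripts of 8 enzymes that move phosphate between adenine nucleotides and creatine were followed through the gastrocnemius of trained, detrained and untrained mice. They are the adenylate kinases Ak1, Ak3 and Ak4, the AMP deaminases Ampd1 and Ampd3, and the creatine kinases Ckm, Ckmt2 and Ckb, and they were taken by symbol from the 40853 genes counted. Ak4 is one of the transcripts that the study selected on these libraries, and its relatives were added with their values in the 3 groups known, so the measured differences between the groups chose the set. For that reason levels and fold changes of the 8 genes between groups are given below as a description, with no p-value, and how many of them pass a threshold is given only beside the share of all genes. All 8 passed the filter on low counts, which 16129 genes passed in all.

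RNA came from the whole medial belly of the gastrocnemius, a mixed calf muscle, of female C57BL/6NJ mice that were 10 weeks old at the start. The 21 mice formed 3 groups of 7, with 1 library per mouse. The Inactive mice lived in standard cages for the 6 weeks of the study, the Active mice ran on a treadmill on 5 days a week for 6 weeks, in sessions of up to 40 minutes made of a warm-up and a longer run at about 70% of their maximal speed, and the Activity Reduction mice trained in the same way for 4 weeks and were then inactive for 2 weeks. Every mouse, the Inactive ones included, also performed maximal running tests, and tissue was collected fasted, days after the last of these. The animals are of 1 strain and 1 sex, and whole muscle holds vessels, nerve and immune cells beside its fibres.

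The libraries held 38482455 to 59785132 counted reads. All 8 transcripts of a list that marks fast muscle fibres were counted, with a summed level of 8041051 to 10198022 normalized counts per library. The summed level of 7 slow fibre transcripts was 91058 to 116857 in the Inactive, 46182 to 112299 in the Active and 30889 to 98720 in the Activity Reduction mice. By the level of 24 liver transcripts the libraries formed a set of 8 with more and a set of 13 with fewer. In the order of the deposited samples the 8 came first and the 13 followed, so the division is also one of sample order. What that order stands for is not given in the sources used here. The 8 libraries came from 5 Active, 2 Activity Reduction and 1 Inactive mice, so the values of Ak4, Ampd3, Ckmt2 and Ckb, the members with the widest differences, are also given within this division.

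Muscle contraction splits ATP faster than mitochondria can refill it, and these enzymes buffer the gap. Creatine kinase passes phosphate from phosphocreatine to ADP, with Ckm at the myofibrils and in the cytosol, Ckmt2 in the intermembrane space of the sarcomeric mitochondria, where it makes phosphocreatine, and Ckb as the brain-type cytosolic form. Adenylate kinase turns a pair of ADP molecules into ATP and AMP, with Ak1 in the cytosol and Ak3 and Ak4 in the mitochondrial matrix, where Ak3 prefers GTP to ATP as its phosphate donor. AMP deaminase removes the AMP as IMP, the opening step of the purine nucleotide cycle, with Ampd1 as the form of adult skeletal muscle and Ampd3 as the form first known from erythrocytes. AMP left in the cell binds AMP-activated protein kinase, a sensor of energy shortage.

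The 3 adenylate kinases are shown at their glycine-rich loop, the stretch near the start of the protein that wraps around the phosphates of the nucleotide, because it is where relatives in this family look most alike. Each line gives coding sequence 5′ to 3′ on the sense strand from GRCm39, and the capitals mark the 27 bases of the 9 codons of the loop.
Ak1: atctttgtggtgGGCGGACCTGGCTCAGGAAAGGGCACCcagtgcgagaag
Ak3: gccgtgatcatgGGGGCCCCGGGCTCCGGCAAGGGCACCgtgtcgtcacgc
Ak4: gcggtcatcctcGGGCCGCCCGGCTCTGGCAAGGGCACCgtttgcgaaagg
The Ak1 stretch lies on the plus strand within chr2:32519884-32520284, over 2 coding blocks of exons with an intron between them. The Ak3 stretch lies on the minus strand at chr19:29025152-29025202, and the Ak4 stretch on the plus strand at chr4:101277039-101277089, each in 1 coding exon. Of the 27 loop bases, Ak3 and Ak4 share 23, Ak1 and Ak3 share 21, and Ak1 and Ak4 share 20.

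Whether reads of one family member could be counted on another was read from the coding sequences. Ak3 and Ak4, both of the mitochondrial matrix, were identical at 63.3% of 660 aligned coding bases, Ampd1 and Ampd3 at 66.5% of 2218, and Ckm and Ckb at 76.5% of 1140. The longest run of coding bases that any members of a family have in common was 20 bases, in Ckm and Ckb, and that of Ak3 and Ak4 was 18 bases. Both runs are shown in full because they bound how much sequence a read could share.
Ckm and Ckb: atggccaaggtgctgacccc
Ak3 and Ak4: acaggcagaagccctgga
The run of the creatine kinases lies at chr7:19148150-19148169 on the plus strand in Ckm and at chr12:111638286-111638305 on the minus strand in Ckb. The run of the adenylate kinases lies at chr19:29004707-29004724 on the minus strand in Ak3 and at chr4:101317716-101317733 on the plus strand in Ak4.

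Copies elsewhere and neighbouring genes leave more room for shared reads. Of the 50-base windows along the canonical transcript, 21.9% of those of Ckb also occur in Ckb-ps1, Ckb-ps2 or Gm12892, and 13.8% of those of Ak4 occur in Ak3l2-ps or Gm69573, a noncoding gene on the opposite strand of Ak4. The share was 16.1% for Ak3, 11.6% for Ckm, 9.69% for Ampd3 and 2.37% for Ckmt2. The shared windows of Ckm occur in 182 other genes and those of Ampd3 in 908. For Ak1 and Ampd1 no window was shared with another gene. Ak3 shares 12.6% of its exonic bases with Cdc37l1 on the opposite strand, which had a median of 3716 counts against 2418 for Ak3. Ckb shares 7.17% of its exonic bases with Trmt61a, with a median of 169 counts against 193. The widest overlaps were those of Ckm, 26.0% of its exonic bases, with A930016O22Rik (median of 1380 counts against 634782) and of Ampd3, 24.2%, with B430319F04Rik (2 against 602), both on the opposite strand. Smaller ones were those of Ampd1, 4.62% with Gm55445 on the same strand, and of Ckmt2, 3.85% with 1700119I11Rik on the opposite strand. Gm55445, 1700119I11Rik and Gm69573 have no row of their own among the counts analysed here. Whether reads were assigned by strand is not given in the sources used here, so the values of all members but Ak1 are uncertain by what these overlaps could add or remove.

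In every mouse the transcripts fell into an abundant and a scarce set. Normalized counts (raw counts divided by the size factor of the library) were divided by the length of the canonical transcript so that genes could be compared. Ckm stood at the top with a mean of 156875 normalized counts per kb over the 21 mice, followed by Ak1 with 32253, Ampd1 with 30401 and Ckmt2 with 20959. Ak3 followed with 776, and Ak4, Ampd3 and Ckb were at 153, 144 and 134 normalized counts per kb.

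The gaps in this order were unequal. Ckm was above Ak1 in 21 of 21 mice, by 4.86 times in the means, Ampd1 above Ckmt2 in 21 of 21, by 1.45 times, Ckmt2 above Ak3 by 27.01 times, and Ak3 above Ak4 by 5.08 times. Ak1 was above Ampd1 in only 16 of 21 mice, Ak4 above Ampd3 in 12 of 21, and Ampd3 above Ckb in 14 of 21, and the ranges of these neighbours overlapped. With the length of the coding sequence in place of the transcript the order was the same, whereas with the length of all annotated exons Ampd1 (18811 per kb) stood above Ak1 (6783 per kb) and Ampd3 (74.7 per kb) above Ak4 (73.0 per kb).

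**Figure D1:**
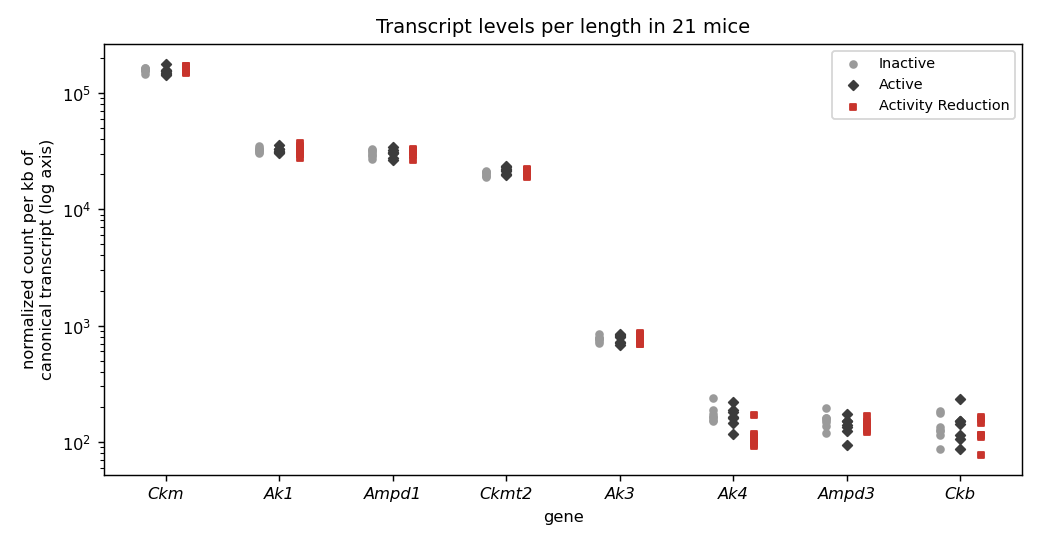
Transcript levels of the 8 genes in normalized counts per kb of canonical transcript, on a log axis, with 1 point per mouse and the groups in separate columns. Ckm, Ak1, Ampd1 and Ckmt2 form the upper set, Ak3 lies between, and Ak4, Ampd3 and Ckb overlap at the bottom, with most Activity Reduction mice lowest for Ak4.

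Of the mitochondrial adenylate kinases, Ak4 was the member with the widest distance between groups. Its normalized counts were 756 at the lowest, 816 at the median and 1192 at the highest in the Inactive mice, 585, 823 and 1101 in the Active mice, and 456, 533 and 846 in the Activity Reduction mice. The groups overlapped, but 6 of the 7 Activity Reduction mice lay below every Inactive mouse and 5 of the 7 lay below every Active mouse. The mouse that stood apart was Activity Reduction replicate 7, with 846 normalized counts. Means were 876 ± 151 (SD, n = 7) in the Inactive, 839 ± 164 (SD, n = 7) in the Active and 567 ± 131 (SD, n = 7) in the Activity Reduction mice.

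The log2 fold change of Ak4 in the edgeR fit was -0.62 (SE 0.138) in the Activity Reduction against the Inactive mice, a difference of -35.3% in the means. Against the Active mice it was -0.57 (SE 0.138), and in the Active against the Inactive mice it was -0.06 (SE 0.137). The first 2 of these comparisons share the Activity Reduction mice and are not independent of each other. Leaving out Activity Reduction replicate 7 gave -0.75 and -0.70. Leaving out Inactive replicate 1 gave -0.53 against the Inactive mice, and leaving out Active replicate 4 gave -0.50 against the Active mice. In bulk muscle, fewer fibres or cells that carry a transcript and less of it per cell cannot be told apart.

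The sets by liver transcripts were spread unevenly over the groups, and the ranges of the slow fibre sum differed between groups. Neither list was tested against the groups, and Ak4 is given here beside both. In the set of 13 low in liver transcripts, the Ak4 means of the groups had a log2 ratio of -0.51 for 5 Activity Reduction against 6 Inactive mice and -0.50 against 2 Active mice. In the set of 8 the log2 ratio was -1.15 for 2 mice against 1 and -0.66 for 2 against 5. That 1 Inactive mouse was replicate 1, the highest of its group in Ak4 with 1192 normalized counts, where the 6 others had 756 to 930. Around the group means, the correlation of Ak4 with the slow fibre list was r = 0.295 (Spearman's rho = 0.125, permutation test, p = 0.262, adjusted p = 0.689 over 72 relations). The part of the slow fibre transcripts in the difference between groups was not tested.

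Ak3, the other matrix enzyme, had 2094, 2301 and 2525 normalized counts as its lowest, median and highest values in the Inactive mice, 2039, 2392 and 2534 in the Active mice and 2052, 2381 and 2572 in the Activity Reduction mice. These ranges lay almost on top of each other, and its log2 fold changes were 0.03 (SE 0.0595) and 0.01 (SE 0.0596) for the Activity Reduction mice against the Inactive and the Active mice. The level of Ak4 per kb, as a percentage of that of Ak3 per kb in the same mouse, was 22.8% ± 3.69 (SD, n = 7) in the Inactive, 22.1% ± 5.77 (SD, n = 7) in the Active and 14.6% ± 3.26 (SD, n = 7) in the Activity Reduction mice. The cytosolic Ak1 had 63744, 68205 and 73660 normalized counts as lowest, median and highest values in the Inactive mice, 63932, 66034 and 74427 in the Active mice and 58270, 68291 and 77898 in the Activity Reduction mice. Its means differed by less than 1 SD of any group, and its widest spread was in the Activity Reduction mice, with a coefficient of variation of 10.2% against 4.93% and 5.41%.

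**Figure D2:**
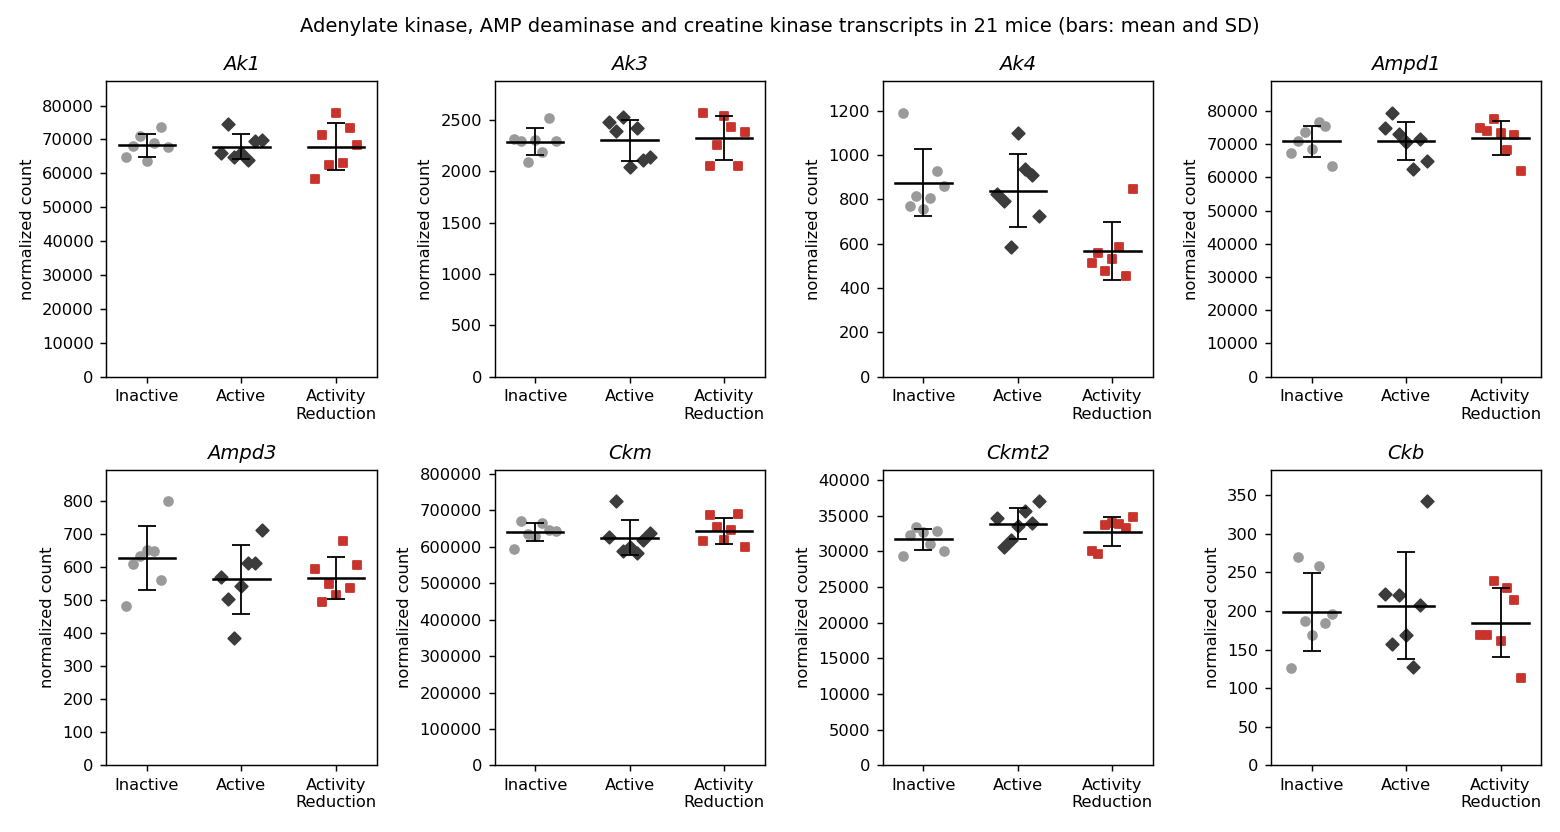
Normalized counts of the 8 transcripts, with 1 point per mouse, 7 mice in each group, and the mean and SD of each group in black; every axis starts at 0. Ak4 is the only panel in which most points of a group, 6 of 7 in Activity Reduction, lie below all points of the Inactive group.

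The AMP deaminases differed less. Ampd1, the muscle form, had 63551, 70944 and 76586 normalized counts as lowest, median and highest values in the Inactive mice, 62451, 71459 and 79443 in the Active mice and 61959, 73204 and 77440 in the Activity Reduction mice, and the 3 ranges overlapped over most of their length. Its log2 fold changes against the Inactive mice were 0.01 (SE 0.0556) in the Active and 0.02 (SE 0.0556) in the Activity Reduction mice. Ampd3 had 483, 633 and 799 normalized counts in the Inactive mice, 384, 569 and 713 in the Active mice and 494, 549 and 680 in the Activity Reduction mice. The log2 fold change of Ampd3 against the Inactive mice was -0.15 (SE 0.112) in the Active and -0.14 (SE 0.112) in the Activity Reduction mice, both within 1 SD of the groups. In each case 6 of 7 mice lay under the Inactive median, and the Inactive mice are the same in both comparisons. Within the set of 13 libraries low in liver transcripts the log2 ratio of the Ampd3 means was 0.03 for 2 Active against 6 Inactive mice, and within the set of 8 it was 0.11 for 5 against 1, so the direction of the Active value turned. For the Activity Reduction mice these ratios were -0.17 (5 against 6) and 0.17 (2 against 1). Around the group means, Ampd3 had r = 0.509 with the slow fibre list (Spearman's rho = 0.369, permutation test, p = 0.0135, adjusted p = 0.190 over 72 relations), and r = 0.264 without the 2 mice farthest out in the list. The part of the slow fibre transcripts in the values of Ampd3 was not tested.

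Among the creatine kinases, Ckm had 594055, 642073 and 669520 normalized counts as lowest, median and highest values in the Inactive mice, 582026, 619152 and 724288 in the Active mice and 598314, 645967 and 689013 in the Activity Reduction mice. Its log2 fold changes against the Inactive mice were -0.03 (SE 0.0473) in the Active and 0.01 (SE 0.0473) in the Activity Reduction mice, and the ranges overlapped almost fully. Ckmt2, the mitochondrial form, had 29344, 32259 and 33393 normalized counts in the Inactive mice, 30605, 34035 and 37023 in the Active mice and 29657, 33710 and 34898 in the Activity Reduction mice. Of the Active mice, 5 of 7 lay above every Inactive mouse, and so did 4 of 7 Activity Reduction mice. The log2 fold change of Ckmt2 was 0.10 (SE 0.0458) in the Active and 0.05 (SE 0.0458) in the Activity Reduction mice against the Inactive mice. Within the 13 libraries low in liver transcripts and within the other 8, the log2 ratios of the means were 0.15 and 0.18 for the Active and 0.08 and 0.03 for the Activity Reduction mice. As a percentage of Ckm per kb, Ckmt2 per kb was 12.8% ± 0.616 (SD, n = 7) in the Inactive, 14.2% ± 1.55 (SD, n = 7) in the Active and 13.2% ± 1.27 (SD, n = 7) in the Activity Reduction mice.

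Ckb was the scarcest and most variable member, with 127, 187 and 269 normalized counts as lowest, median and highest values in the Inactive mice, 128, 208 and 342 in the Active mice and 113, 169 and 239 in the Activity Reduction mice. Its coefficient of variation was 25.2%, 33.6% and 24.2% in these groups, so that its log2 fold changes of 0.06 (SE 0.198) in the Active and -0.10 (SE 0.198) in the Activity Reduction against the Inactive mice were smaller than their errors. Within the set of 13 libraries low in liver transcripts the log2 ratio of its means was 0.38 for 2 Active against 6 Inactive mice, and within the set of 8 it was 0.50 for 5 against 1. For the Activity Reduction mice these ratios were -0.14 (5 against 6) and 0.41 (2 against 1). The level of Ckb also differed between the sets themselves, as given below.

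**Figure D3:**
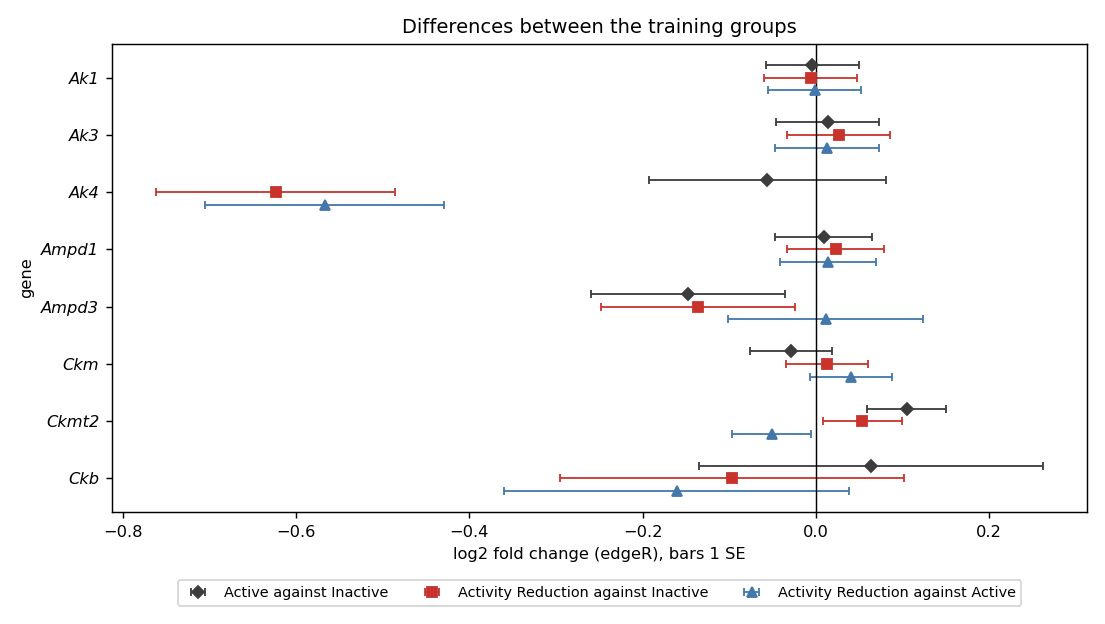
Log2 fold changes of the 8 transcripts between the training groups, from the edgeR fit of the 21 libraries, with bars of 1 SE to each side. Ak4 lies at -0.62 and -0.57 in the Activity Reduction comparisons, and the values of the other 7 lie between -0.16 and 0.10.

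The methods of the study set a false discovery rate under 0.05 and a fold change over 0.25 in either direction. A figure legend of the study words the fold limit otherwise. The limit was taken here as a log2 fold change over 0.25 in either direction, with an adjusted p-value under 0.05. On these thresholds edgeR called 0 of the 8 members in the Active against Inactive comparison, where it called 0% of all genes tested. At an unadjusted p-value under 0.05 it was 1 of 8, Ckmt2, against 10.9% of all genes, and DESeq2 called 0 of 8, against 0.424%. In the Activity Reduction against Inactive comparison edgeR called 0 of 8, against 0.0124% of all genes. At an unadjusted p-value under 0.05 it was 1 of 8, Ak4, against 7.73%, and DESeq2 called 1 of 8, Ak4, against 0.252%. In the Activity Reduction against Active comparison edgeR called 0 of 8, against 0%, with 1 of 8, Ak4, against 13.3% at an unadjusted p-value under 0.05, and DESeq2 called 1 of 8, Ak4, against 0.869%. The groups overlapped in all 24 comparisons of a member, where 0.254%, 0.118% and 0.291% of all genes had groups that did not overlap in the 3 comparisons in this order. Since the members were chosen on these contrasts, nothing is read from their counts.

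The other enzymes and carriers of the pathway were followed in a list of 51 genes, of which 44 passed the filter. The list was put together with earlier results of these data known. In each of the 3 comparisons 0 of the 44 were called by edgeR, and 0 by DESeq2. At an unadjusted p-value under 0.05 there were 6 of 44 in the Active against Inactive comparison, 5 higher and 1 lower in the Active mice, beside 10.9% of all genes (997 higher, 757 lower). There were 4 of 44 in the Activity Reduction against Inactive comparison, all higher, beside 7.73% (676 higher, 571 lower), and 4 of 44 in the Activity Reduction against Active comparison, 2 higher and 2 lower, beside 13.3% (1111 higher, 1038 lower). These counts are near the background. The median log2 fold change of the list was 0.01, 0.03 and -0.01, beside 0.01, 0.01 and 0.00 over all genes tested.

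The 5′-nucleotidases, which turn AMP and IMP into nucleosides, had the largest fold change, in either direction, in each comparison among the genes of the list at an unadjusted p-value under 0.05, from which the genes named here were taken. Nt5c2, a cytosolic form that prefers IMP, had 361 ± 26.6 (SD, n = 7) normalized counts in the Active mice against 297 ± 45.0 (SD, n = 7) in the Inactive mice and 309.4 ± 48.0 (SD, n = 7) in the Activity Reduction mice. Its log2 fold change was 0.29 (SE 0.101) in the Active against the Inactive mice, with an adjusted p-value of 0.333 in edgeR, and -0.22 (SE 0.101) in the Activity Reduction against the Active mice, with an adjusted p-value of 0.343. Nt5c1a, the AMP-preferring form of muscle, was at 897 ± 74.7 (SD, n = 7) normalized counts in the Active and 791 ± 73.4 (SD, n = 7) in the Inactive mice, a log2 fold change of 0.19 (SE 0.0826). Nt5c, a deoxynucleotidase, was at 74.4 ± 10.7 (SD, n = 7) normalized counts in the Activity Reduction and 57.8 ± 5.90 (SD, n = 7) in the Inactive mice, a log2 fold change of 0.37 (SE 0.135) with an adjusted p-value of 0.495 in edgeR. None of these values passed the threshold.

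Of the carriers, Slc25a4, which exchanges ATP for ADP across the inner mitochondrial membrane, was at 148129 ± 9150 (SD, n = 7) normalized counts in the Activity Reduction mice, 136703 ± 5422 (SD, n = 7) in the Active mice and 137350 ± 5365 (SD, n = 7) in the Inactive mice. Its log2 fold change was 0.11 (SE 0.0401) against either group, with adjusted p-values of 0.221 against the Active and 0.484 against the Inactive mice in edgeR. Slc25a23, a calcium-dependent ATP-Mg and phosphate carrier, had a log2 fold change of 0.22 (SE 0.0757) in the Active against the Inactive mice, with an adjusted p-value of 0.329 in edgeR. The nucleoside transporters Slc29a1 and Slc29a2 had log2 fold changes of -0.18 (SE 0.0591) in the Activity Reduction against the Active mice and of 0.19 (SE 0.0867) against the Inactive mice. Neither passed the threshold.

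Adssl1, listed under its older symbol, encodes the muscle adenylosuccinate synthase that follows AMP deaminase in the purine nucleotide cycle. It was at 61480 ± 6032 (SD, n = 7) normalized counts in the Activity Reduction, 54762 ± 2658 (SD, n = 7) in the Active and 57659 ± 2430 (SD, n = 7) in the Inactive mice, and its log2 fold change against the Active mice was 0.16 (SE 0.0508), with an adjusted p-value of 0.173 in edgeR, the smallest of the list in that comparison. Gda, the guanine deaminase, had a log2 fold change of 0.18 (SE 0.0856) in the Active against the Inactive mice, and Nme2, a nucleoside diphosphate kinase, of 0.09 (SE 0.0409) in the Activity Reduction against the Inactive mice. Both were short of the threshold.

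The division of the libraries by liver transcripts was not used to choose the members, and it was tested for them with the groups in the model. Ckmt2 was lower in the 8 libraries with more liver transcripts, with a log2 difference of -0.13 (SE 0.0365, adjusted p-value of 0.0373 in edgeR). It was the only member called, 1 of 8 against 4.58% of all genes. At an unadjusted p-value under 0.05 there were 3 of 8, Ckmt2, Ckb and Ampd3, against 12.6% of all genes, with log2 differences of -0.47 (SE 0.165) for Ckb and -0.26 (SE 0.0948) for Ampd3 and adjusted p-values of 0.156 and 0.189 in edgeR. For Ak4 the log2 difference was 0.12 (SE 0.127), with an adjusted p-value of 0.807 in edgeR.

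The normalized counts of Ckmt2 in the 8 libraries were 29344 in the single Inactive mouse, 30605 to 35742 in 5 Active mice and 29657 to 30100 in 2 Activity Reduction mice. In the 13 other libraries they were 30126 to 33393 in 6 Inactive mice, 34035 to 37023 in 2 Active mice and 33320 to 34898 in 5 Activity Reduction mice. The Inactive and the Activity Reduction mice were thus each divided without overlap, and the Active mice overlapped. The call is near the threshold. It was lost without Active replicate 3 (adjusted p-value of 0.0606), Active replicate 7 (0.128), Inactive replicate 1 (0.0949), Inactive replicate 3 (just over 0.05), or Activity Reduction replicate 1 (0.108), 2 (0.125), 5 (0.0532) or 7 (0.0533), all in edgeR.

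**Figure D4:**
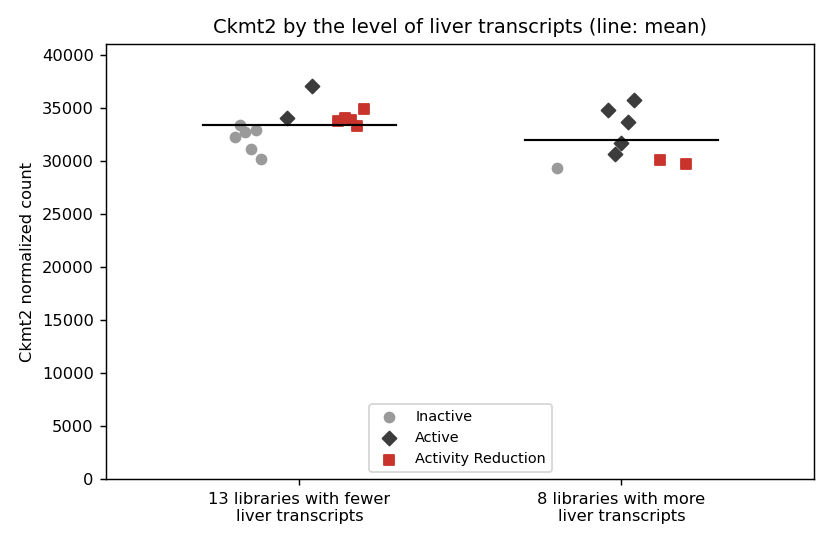
Ckmt2 in normalized counts in the 13 libraries with fewer and the 8 libraries with more liver transcripts, with 1 point per mouse and the mean of each set as a line. The 2 Activity Reduction mice with more liver transcripts, at 29657 and 30100, lie below the 5 with fewer, at 33320 to 34898.

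How the members varied between mice of the same group was not used to choose them either. Levels on the log2(normalized count + 1) scale were compared after the group means were subtracted, over 21 mice and 28 pairs of members. No pair passed an adjusted p-value under 0.05, and 5 pairs had an unadjusted p-value under 0.05 in the permutation test. The strongest was Ak4 with Ckb, the mitochondrial adenylate kinase against the brain-type creatine kinase, with r = -0.655 (Spearman's rho = -0.595, permutation test, p = 0.00318, adjusted p = 0.0890). Without the 2 mice farthest out in Ckb r was -0.571, within the 13 libraries with fewer liver transcripts -0.727 and within the 8 with more -0.569. The adjusted p-value of this pair was 0.0393 without Active replicate 2 and 0.0386 without Active replicate 3 (permutation test). Ampd1 with Ckm had r = 0.537 (adjusted p = 0.244, permutation test), Ampd3 with Ckmt2 r = 0.485, Ak1 with Ckm r = 0.466 and Ampd1 with Ampd3 r = -0.473, each with the same adjusted p-value. Within the 13 and the 8 libraries, r was 0.445 and 0.689 for Ampd1 with Ckm and -0.729 and -0.397 for Ampd1 with Ampd3. It was -0.227 and 0.715 for Ampd3 with Ckmt2 and -0.027 and 0.882 for Ak1 with Ckm, which did not hold within both sets. Ckm with Ckb had r = 0.420 (adjusted p = 0.359, permutation test), but r = 0.758 without Active replicate 2, the mouse highest in Ckm (adjusted p = 0.00364, permutation test). Within the 13 and the 8 libraries r of Ckm with Ckb was 0.839 and -0.070.

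Against the marker lists of 9 fibre and cell types, 72 relations were computed and 1 passed. Ak1 was higher in mice with more of the fast fibre transcripts, with r = 0.758 (Spearman's rho = 0.722, permutation test, p = 0.00025, adjusted p = 0.0180). Its sign was the same in each group, with r = 0.827 in the Inactive, 0.867 in the Active and 0.710 in the Activity Reduction mice. Without the 2 mice farthest out in the list r was 0.622, and it was 0.516 within the 13 libraries with fewer liver transcripts and 0.941 within the 8 with more. The adjusted p-value was above 0.05 without Activity Reduction replicate 1 (0.0724), 2 (0.0540) or 6 (0.0677), Active replicate 2 (0.0742), or Inactive replicate 4 (0.0547) or 6 (0.0511), by the same permutation test. It was 0.114 when the liver division was removed together with the group means (permutation test), with r = 0.727. Library composition is shared by both sides of this relation, since the fast fibre transcripts and Ak1 are scaled by the same size factor.

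Ckm, the other abundant cytosolic enzyme, had r = 0.624 with the fast fibre list (Spearman's rho = 0.692, permutation test, p = 0.00178, adjusted p = 0.0502), just short of the threshold. The relation passed by rank (adjusted p = 0.0362, permutation test) and with TMM log2 CPM in place of size factors (r = 0.667, adjusted p = 0.0194, permutation test), so its call depends on these choices. Without the 2 mice farthest out r was 0.644, and within the libraries with fewer and more liver transcripts it was 0.572 and 0.742. Ckb had r = 0.649 with the macrophage list (Spearman's rho = 0.640, permutation test, p = 0.00209, adjusted p = 0.0502), with r = 0.869 within the 13 libraries with fewer liver transcripts and -0.134 within the 8 with more, so that this relation did not hold within both sets. With the Schwann cell list, the myelinating cells of nerve, Ckb had r = 0.602 (adjusted p = 0.146, permutation test) and Ak4 had r = -0.494 (adjusted p = 0.243, permutation test). By rank the value for Ak4 was -0.681 (adjusted p = 0.0362, permutation test). The Schwann cell list was highest in Inactive replicate 7 and Active replicate 7, with 5616 and 7206 normalized counts summed, where the Activity Reduction mice ranged from 1838 to 3041 and the medians of the Inactive and Active mice were 2037 and 2214.

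**Figure D5:**
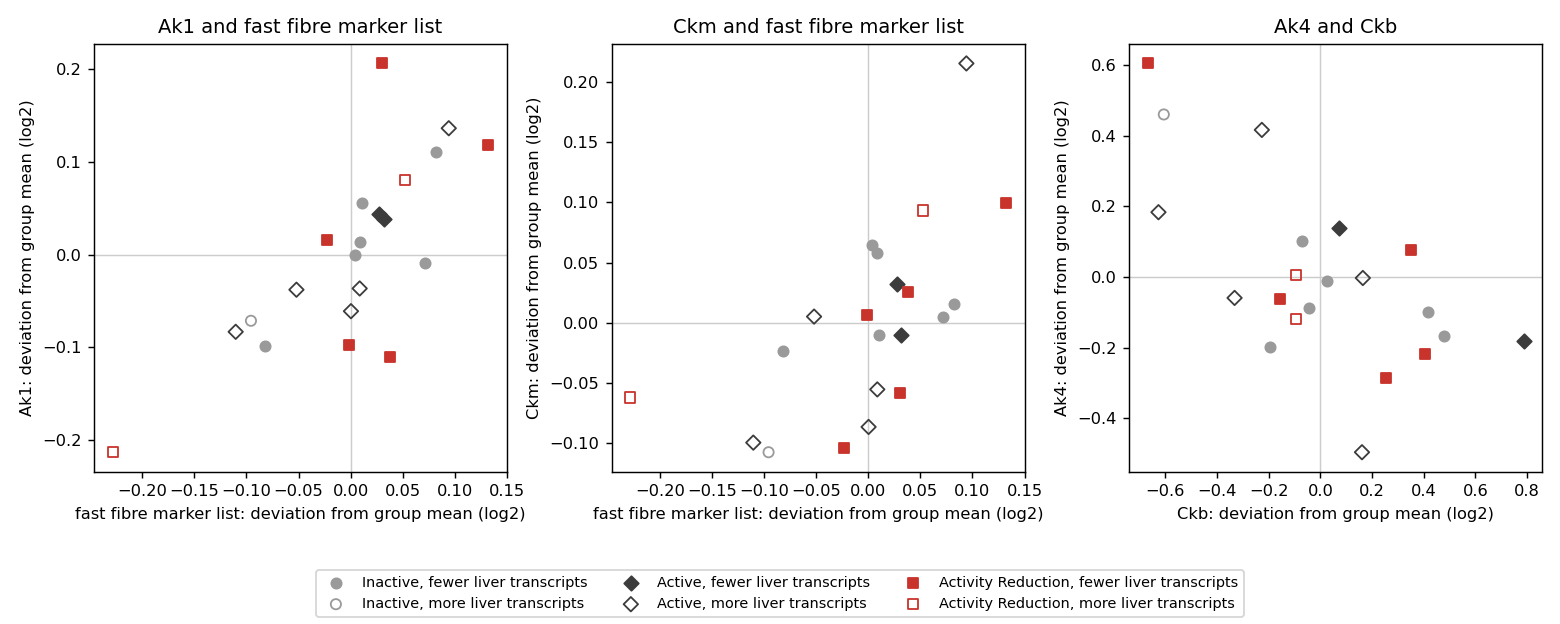
Deviations from the group mean, on the log2 scale, of Ak1 and of Ckm against the fast fibre marker list and of Ak4 against Ckb, with 1 point per mouse; open symbols mark the 8 libraries with more liver transcripts. The points run upward for Ak1 and Ckm (r = 0.758 and 0.624), where 1 Activity Reduction mouse lies far to the left, and downward for Ak4 against Ckb (r = -0.655); of these 3 relations the first passed the threshold.

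The genes whose levels followed Ak4 most closely from mouse to mouse were sought among 11012 genes with a mean of at least 100 normalized counts, over 21 libraries and after the group means were subtracted. They were Adk (r = 0.802), the adenosine kinase that turns adenosine back into AMP, Plod2 (r = 0.793), a lysyl hydroxylase of collagen, Prkag2 (r = 0.759), the AMP-binding gamma subunit of AMP-activated protein kinase, Hsd17b4 (r = 0.748), the bifunctional enzyme of peroxisomal fatty acid oxidation, and Aldh9a1 (r = 0.742), an aldehyde dehydrogenase of carnitine synthesis. Over all compared genes r ran from -0.872 to 0.802, with a median of 0.02. The largest value in size was thus a negative one, and genes that ran against Ak4 are not named here. These are the highest of many values from the same libraries and carry no test. Only Pearson's r is given for them, with no value by rank or without the mice farthest out in Ak4, so a few mice could carry them.

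The mean of each of these genes was lowest in the Activity Reduction mice. The share of all compared genes that were lowest there is not given, so nothing is read from this. Adk was at 3171 ± 301 (SD, n = 7) normalized counts in the Inactive, 3241 ± 188 (SD, n = 7) in the Active and 3062 ± 269 (SD, n = 7) in the Activity Reduction mice. The means of Adk thus differed by less than the SD of any group. For the genes that follow only means are given. Prkag2 was at 480, 492 and 445 normalized counts in the same order of groups. Plod2 was at 212, 245 and 171 normalized counts, Aldh9a1 at 513, 573 and 414, and Hsd17b4 at 3785, 3648 and 3545. Hsd17b4 had the order of Ak4, from Inactive over Active to Activity Reduction, and in the other 4 genes the Active mice were highest.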

How the data were processed

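The deposited values were counts of reads per gene, without normalization: poly(A) reads had been trimmed by the authors (fastp), placed on GRCm39 (RNA STAR) and assigned to genes (featureCounts) (versions, strand setting and annotation release are not given in the sources used here). The other deposited table repeats the same 857913 values under a name for normalized counts and was not used further. Counts were divided by DESeq2 size factors over the 21 libraries for the levels shown.

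Group differences were fitted for 16129 genes by edgeR's quasi-likelihood method with TMM factors, in a single model for the 21 libraries and after its filter on low counts, with Benjamini-Hochberg adjustment over all of them (R 4.3.3, edgeR 4.0.16, DESeq2 1.42.0 as the alternative tool). The call was an adjusted p-value under 0.05 and a log2 fold change over 0.25 in either direction. No fold limit was set in the test of the liver division, whose libraries were divided at the widest gap in the mean of the liver list, with at least 4 on each side, and which was fitted together with the groups. Relations were tested on log2(normalized count + 1) by permuting mice within groups 100000 times (numpy 2.4.6), two-sided. The scripts were tested on simulated data.

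The members and lists were chosen with earlier results of these data known. Named were all 8 members, in each comparison the 4 pathway genes with the largest absolute fold change among those at an unadjusted p-value under 0.05, and the 5 genes most correlated with Ak4. Sequences and lengths came from the GRCm39 genome and its GENCODE annotation. Adss1 was found in the count table under the older symbol Adssl1 through RefSeq synonyms. Replicates of a group are separate mice, and no replicates of a group agreed within sampling noise (chi-square per gene of at least 13.6). Activity Reduction replicate 4 stood farthest from the mice of its group, with a chi-square per gene of 127 to 168. The same mouse had the lowest slow fibre sum (30889) and the highest Ak1 value (77898 normalized counts). Replicate numbers did not pair the mice. Ckb had the fewest reads, with 114 to 330 raw counts per library.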

Additional observations from a re-analysis of the deposited data

Results flagged for a closer look

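In 3 of the 24 groups of a member, a mouse stood apart by Dixon's test, in which the gap of the highest or lowest mouse to its neighbour is divided by the range of the group and compared with the 95% critical value for 7 mice. Chance gives about 1 such group in 20. For Ak4 these were Inactive replicate 1, the highest of its group with 1192 normalized counts, and Activity Reduction replicate 7, the highest of its group with 846 normalized counts. For Ckm it was Active replicate 2, the highest of its group with 724288 normalized counts. The effect of leaving out the Ak4 mice stands beside the fold changes above.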

How the results depend on the processing

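All 696 values of the 24 fold changes of members under the alternatives (DESeq2, fits of 2 groups, other size factors, no filter on low counts, the liver division or liver level as a covariate, the replicate block, and each library left out) lay within 1 SD of the values given. That SD is the log2 spread between mice within groups, 0.40 for Ckb, 0.23 for Ampd3 and 0.09 for Ckmt2, not the error of a fold change. Leaving out a single mouse can move a group mean by only a part of that SD. For the fits with a library left out, the count could therefore hardly have come out otherwise, and nothing is read from it. Values did move inside that SD. With all libraries kept, the alternatives put the Active against Inactive value at 0.06 to 0.32 for Ckb and -0.15 to -0.003 for Ampd3. For Ckmt2 they put it at 0.10 to 0.18. Pathway genes called were 0 in each comparison under every alternative, the replicate block included. DESeq2 on the 3 groups called 57, 23 and 117 genes in all where edgeR called 0, 2 and 0. Members called against liver transcripts were 1 with DESeq2, 0 with no filter on low counts and 0 with the replicate block, and from 0 to 1 when each library was left out. Without Activity Reduction replicate 7 the 1 call was Ckb in place of Ckmt2 (adjusted p-value of 0.0337, edgeR). Relations of members with marker lists that passed were 2 with TMM log2 CPM, 3 with Spearman's correlation, 0 with the liver division removed and from 0 to 3 when each library was left out. Member pairs that passed were 0 under the same settings and from 0 to 2 when each library was left out, the 2 being Ak4 with Ckb and Ckm with Ckb without Active replicate 2. Mice of the same replicate number correlated at -0.23 to 0.44 and 3 of 21 libraries correlated best with their own number, so the numbers do not pair the mice. For replicate number 1 the correlations were 0.24 to 0.44. The mice with that number were all in the set with more liver transcripts, and those with numbers 6 and 7 all in the set with fewer. The replicate block and the liver division are therefore not independent of each other. The cause of the changes under the alternatives was not tested. Ckb, Ampd3 and Ak4 were the scarcest members, with medians of 193, 602 and 807 raw counts per library. Their coefficients of variation between mice of a group were 24.2% to 33.6%, 11.2% to 18.3% and 17.2% to 23.1%. The part of counting depth in this spread was not tested.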
